A study of Homo sapiens with 12 samples.

Results

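The 10 genes of the STAT3 and IL-6 family receptor pathway described here were read out in KYSE70 cells, an established human esophageal squamous cell carcinoma line, after exposure to 1 of 2 drugs. The genes were taken by symbol from a table of 58884 genes. They are the receptor subunits IL6ST, IL6R, OSMR and LIFR, the kinases JAK1 and JAK2, the transcription factor STAT3, the inhibitors SOCS1 and SOCS3, and the kinase PIM1. Cells received 10 µM pyrimethamine, 20 nM mitoxantrone or neither drug (control), and RNA was taken at 72 h, with 4 libraries in each of the 3 groups. Pyrimethamine is an inhibitor of dihydrofolate reductase that is also reported to inhibit STAT3, and mitoxantrone is an inhibitor of DNA topoisomerase II. The series treats both as inhibitors of NRF2, a transcription factor of the oxidative stress response. The labels do not say what vehicle the control cells received, nor whether separate cultures gave the 4 libraries of a group. The p-values therefore measure the spread between libraries, which may be technical.

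Cytokines of the IL-6 family bind receptor complexes that mostly share the signaling subunit gp130, encoded by IL6ST, and JAK kinases bound to these receptors phosphorylate STAT3, which then enters the nucleus and activates genes. SOCS proteins are made in response and shut the receptor and kinase off again, and PIM1 is a survival kinase whose gene STAT3 is known to activate. STAT3 is often found active in squamous carcinomas. Only mRNA was measured here, and neither STAT3 protein nor its phosphorylation.

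Library depth was 47.5 M to 94.5 M gene reads, and values are normalized counts, reads scaled by the authors with a single factor for each library. All 10 genes passed the filter on low values, set at 10 normalized counts in 4 or more libraries, as did 16950 genes in all. The lowest was SOCS1, with 48 to 126 reads per library, and every other member had at least 329 reads in each library. All 13 esophageal squamous epithelial markers passed the filter. Of 11 immune markers 2 passed and MS4A1 was at 0, and the list's summed level was 60.1 to 89.8 in pyrimethamine, 4.77 to 9.30 in mitoxantrone and 18.4 to 53.3 in control libraries. Of 8 fibroblast markers 3 passed and FAP was at 0, with sums of 11848 to 13230 in pyrimethamine, 5873 to 7647 in mitoxantrone and 16889 to 17597 in control libraries. Most of this sum came from COL1A1 and COL3A1, with means of 14955 and 2295 in control libraries, while 5 of the 8 averaged under 1. Of 6 endothelial markers 2 passed and CLDN5 was at 0, with sums of 1102 to 1193 in pyrimethamine, 186 to 252 in mitoxantrone and 967 to 1091 in control libraries. Most of this sum came from VWF, with a mean of 1001 in control libraries. The mitochondrial genome gave 7.65 ± 0.621% of reads in pyrimethamine, 3.71 ± 0.321% in mitoxantrone and 6.43 ± 0.230% in control libraries (SD, n = 4 each). The part of these measures in the results below was not tested. In bulk RNA, fewer cells of a type and less RNA per cell cannot be told apart.

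The DNA just before the start sites of 4 of the genes is shown. STAT3, IL6ST and JAK1 were chosen because each moved one way with pyrimethamine and the other way with mitoxantrone. OSMR did too, but little of its window lies outside exons. LIFR was chosen as the member with a STAT-type motif in the windows searched. The sequences are RefSeq promoter windows on GRCh38, 5′ to 3′ on the gene's strand, kept to the longest stretch outside annotated exons. The STAT3 stretch therefore ends 127 bases before its start site and the IL6ST stretch 31 bases before. JAK1 and LIFR have 3 windows each, and the window shown is one that holds the marked motif. All 4 genes lie on the minus strand. The stretch of STAT3 is chr17:42388569-42388692, that of IL6ST chr5:55994994-55995166, that of JAK1 chr1:64966550-64966799 and that of LIFR chr5:38595406-38595655. Capitals mark TGACNNNGC, the core of the antioxidant response element that NRF2 binds, in JAK1, and TTCNNNGAA, the STAT dimer site, in LIFR.
STAT3: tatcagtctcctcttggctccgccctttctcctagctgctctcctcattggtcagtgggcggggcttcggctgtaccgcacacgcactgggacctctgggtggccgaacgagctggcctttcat
IL6ST: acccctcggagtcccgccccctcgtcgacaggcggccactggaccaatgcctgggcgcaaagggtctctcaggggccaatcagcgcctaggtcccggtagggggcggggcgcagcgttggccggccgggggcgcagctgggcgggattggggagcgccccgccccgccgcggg
JAK1: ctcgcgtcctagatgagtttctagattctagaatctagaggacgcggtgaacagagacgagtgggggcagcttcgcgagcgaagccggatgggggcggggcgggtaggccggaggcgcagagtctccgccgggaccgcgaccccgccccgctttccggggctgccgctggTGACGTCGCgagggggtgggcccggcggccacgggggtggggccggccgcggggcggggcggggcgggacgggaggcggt
LIFR: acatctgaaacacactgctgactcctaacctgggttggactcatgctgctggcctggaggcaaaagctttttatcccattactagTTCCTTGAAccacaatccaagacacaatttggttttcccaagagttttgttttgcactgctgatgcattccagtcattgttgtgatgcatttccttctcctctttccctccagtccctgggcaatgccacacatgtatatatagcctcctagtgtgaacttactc

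The 10 genes have 18 RefSeq start sites, and the 250 bases before each were searched on both strands. TTCNNNGAA was found in 2 of the 18 windows, both of LIFR, at 165 and 182 bases before the start, and in 6.57% of all 35116 windows. TGACNNNGC was found in 1 window, of JAK1, at 80 bases before the start, and in 10.9% of all windows. The AP-1 motif TGANTCA, which can overlap TGACNNNGC, and the cAMP response motif TGACGTCA were in no member window and in 6.57% and 1.65% of all windows. A match is a stretch of letters, and binding was not measured.

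With pyrimethamine, 6 of the 10 genes changed against control. STAT3, JAK1, IL6ST, OSMR and PIM1 rose and IL6R fell, while LIFR, JAK2, SOCS1 and SOCS3 were not called. The background was high, since 53.3% of the 16950 genes tested were called (26.4% higher and 26.9% lower) by limma at a Benjamini-Hochberg adjusted p below 0.05. The median log2 change was 0.15 over the 10 genes and 0.0018 over all genes tested. In 5 of the 10 genes the 4 pyrimethamine libraries did not overlap the 4 control libraries, against 51.1% of all genes.

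With mitoxantrone, 8 of the 10 genes changed against control. STAT3, JAK1, IL6ST, OSMR, IL6R, SOCS1 and SOCS3 fell, PIM1 rose, and LIFR and JAK2 were not called. Of all genes tested 69.3% were called (33.5% higher and 35.8% lower), and 7 of 10 called lower stands beside that 35.8%. This split depends on the scaling: 5681 genes were called higher and 6064 lower as deposited, and 4420 higher and 7210 lower with libraries rescaled to the same total. The median log2 change was -0.27 over the 10 genes and -0.0080 over all genes. The groups did not overlap in 6 of the 10 genes, against 60.9% of all genes.

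Pyrimethamine and mitoxantrone libraries differed in 8 of the 10 genes, at doses that differ (10 µM and 20 nM) and the same 72 h. STAT3, JAK1, OSMR, IL6ST and SOCS3 were higher with pyrimethamine, IL6R, JAK2 and PIM1 were lower with it, and LIFR and SOCS1 were not called. Of all genes tested 76.4% were called in this comparison (39.5% higher and 36.9% lower), and 68.8% had groups that did not overlap, against 7 of the 10 genes. Both drugs were set against the same 4 control libraries, so their changes from control are not independent.

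**Figure D1:**
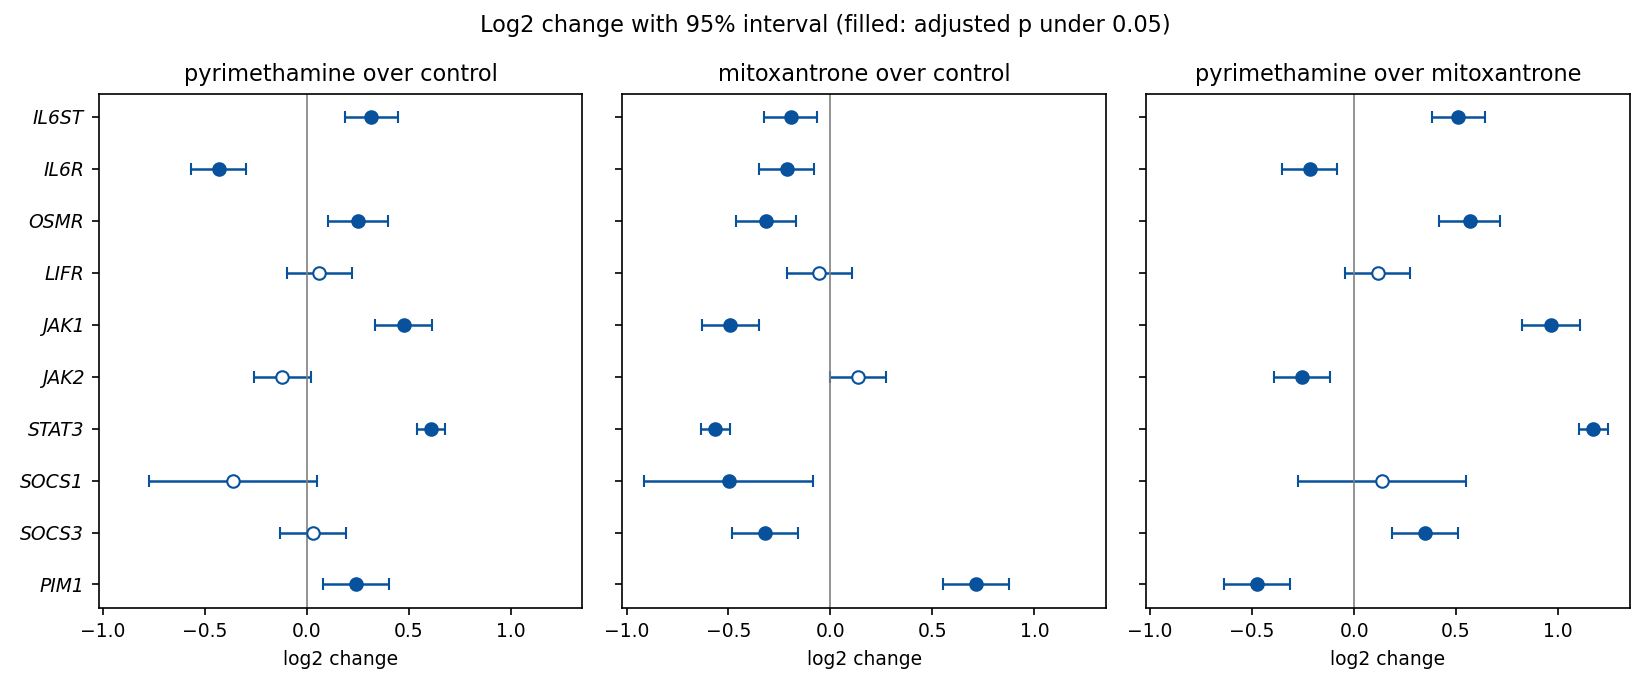
Log2 changes of the 10 genes (x axis, with 95% confidence intervals from limma) for pyrimethamine over control, mitoxantrone over control and pyrimethamine over mitoxantrone, filled where called at an adjusted p below 0.05. STAT3 spans the widest range, with 0.61 for pyrimethamine and -0.56 for mitoxantrone over control.

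IL6ST encodes gp130, the subunit that most receptors of the family share. Its normalized counts were 6175, 6339, 5949 and 6029.6 in pyrimethamine libraries, 3660.4, 4885, 4363 and 4352 in mitoxantrone libraries, and 5279, 5003, 4938 and 4479.7 in control libraries. Every pyrimethamine library was above every control library, while 1 mitoxantrone library lay within the control range. By limma the log2 change was 0.32 for pyrimethamine over control (SE 0.0629, adjusted p = 2.24e-04), a 1.25-fold rise. It was -0.20 for mitoxantrone over control (SE 0.0629, adjusted p = 0.00896). The mitoxantrone change leans on replicate 1, the lowest library: without it the log2 change was -0.12 (adjusted p = 0.0337). The call was lost with no variance trend (adjusted p = 0.0512). Pyrimethamine over mitoxantrone gave 0.51 (adjusted p = 1.99e-07). Of the IL6ST exon bases 8.58% are also covered by AC008914.1 on the other strand, and without a stated strand setting reads of such partners cannot be told apart.

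IL6R, the subunit that binds IL-6 itself, was lower with both drugs. It had 1161, 1066, 1052 and 1094 normalized counts in pyrimethamine libraries, 1319.99, 1117, 1348 and 1312 in mitoxantrone libraries, and 1644, 1429.7, 1431 and 1407 in control libraries. All 8 drug-treated libraries were below all 4 control libraries, and the pyrimethamine range overlapped the mitoxantrone range. The limma log2 change was -0.43 for pyrimethamine over control (SE 0.0648, adjusted p = 8.35e-06), 1.35-fold lower, and -0.21 for mitoxantrone over control (SE 0.0648, adjusted p = 0.00587). Pyrimethamine over mitoxantrone was -0.22 (adjusted p = 0.00453).

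OSMR pairs with gp130 in the oncostatin M receptor and had the same order of groups as IL6ST. Its values were 637, 699, 668 and 635 in pyrimethamine libraries, 482, 419, 417 and 465 in mitoxantrone libraries, and 569.7, 557, 556 and 532 in control libraries. The 3 groups did not overlap, with pyrimethamine highest and mitoxantrone lowest. The limma log2 changes were 0.25 for pyrimethamine over control (SE 0.0714, adjusted p = 0.00522), -0.32 for mitoxantrone over control (adjusted p = 5.21e-04) and 0.57 for pyrimethamine over mitoxantrone (adjusted p = 2.86e-07). RICTOR covers 3.19% of the OSMR exon bases on the other strand.

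LIFR, which pairs with gp130 to bind leukemia inhibitory factor, was not called in any comparison. It had 684, 685, 689 and 631 normalized counts in pyrimethamine libraries, 596, 648, 586 and 650.2 in mitoxantrone libraries, and 688, 622, 716 and 559.97 in control libraries. The highest and the lowest of the 12 values were both control libraries, so all 3 groups overlapped. The 95% interval of the log2 change was -0.10 to 0.22 for pyrimethamine over control (adjusted p = 0.527), -0.22 to 0.10 for mitoxantrone over control (adjusted p = 0.529) and -0.04 to 0.28 for pyrimethamine over mitoxantrone (adjusted p = 0.170). With upper-quartile rescaling the difference between the drugs was called, at 0.17 (adjusted p = 0.0433). LIFR-AS1 covers 5.30% of the LIFR exon bases on the other strand.

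**Figure D2:**
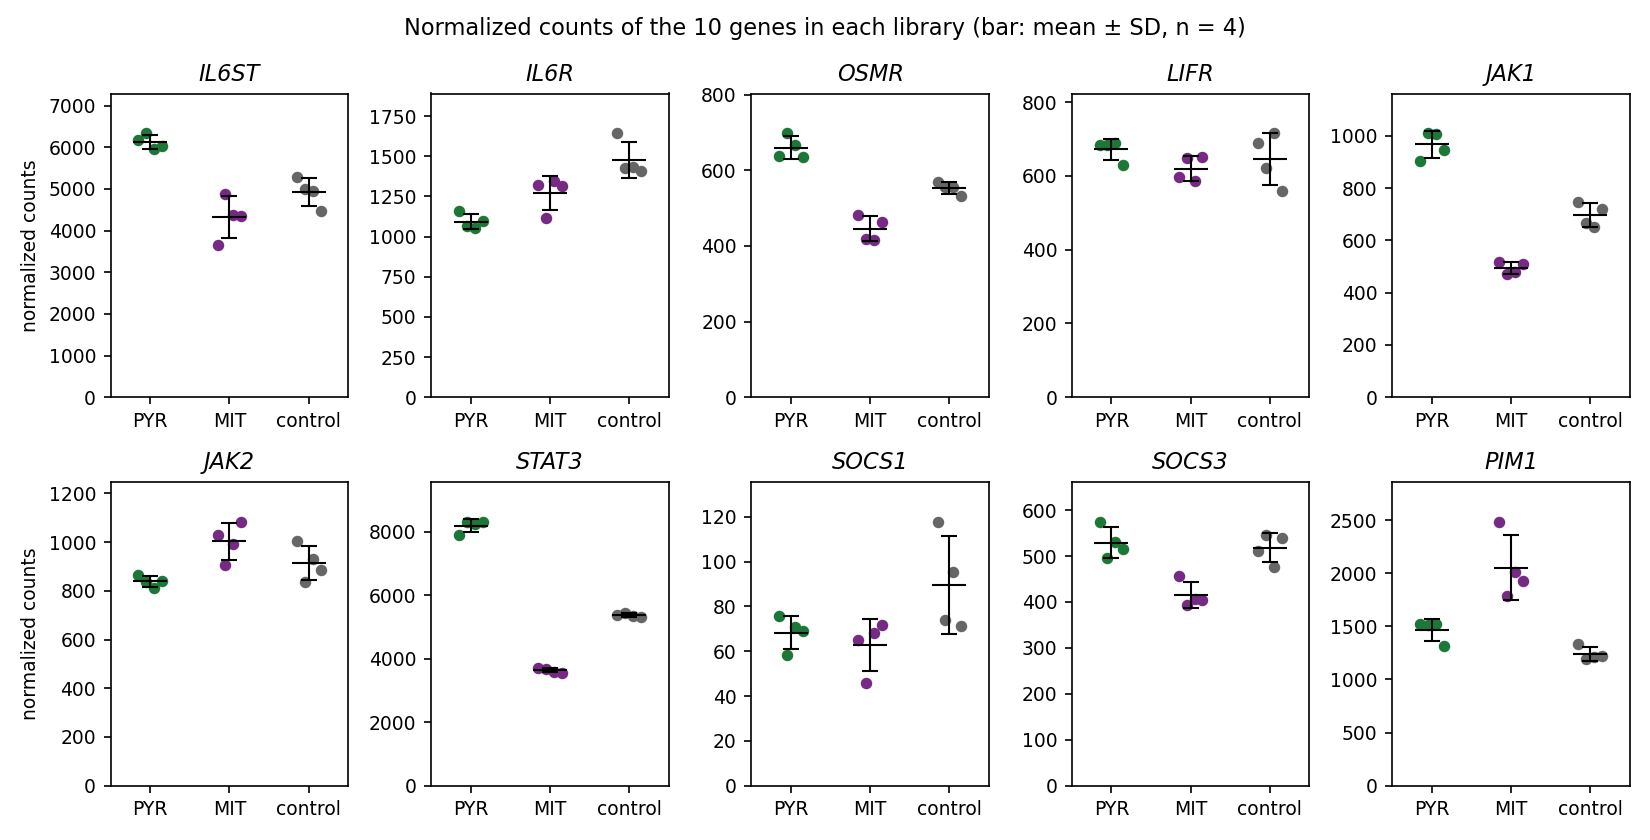
Normalized counts (y axis, each panel on its own scale) of the 10 genes in each of the 12 libraries, with pyrimethamine, mitoxantrone and control from left to right; points are libraries and bars are the mean and SD of 4. For STAT3, JAK1 and OSMR the 3 groups do not overlap, LIFR overlaps throughout, and PIM1 has its highest value of 2485 in a mitoxantrone library.

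JAK1 is the receptor-bound kinase most used by gp130. It had 904, 1010.1, 1007 and 947 normalized counts in pyrimethamine libraries, 516, 472, 479.9 and 509 in mitoxantrone libraries, and 748, 665, 651 and 721 in control libraries. The 3 groups did not overlap. By limma the log2 change was 0.47 for pyrimethamine over control (SE 0.0673, adjusted p = 4.14e-06), 1.39-fold higher, and -0.49 for mitoxantrone over control (SE 0.0673, adjusted p = 1.37e-06), 1.41-fold lower. Between the drugs JAK1 differed 1.95-fold, a log2 change of 0.97 for pyrimethamine over mitoxantrone (adjusted p = 2.06e-11).

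JAK2, the related kinase used by gp130 and by hormone receptors such as that of erythropoietin, did not follow JAK1. Its values were 867, 838, 811 and 842 in pyrimethamine libraries, 1029.8, 905, 992 and 1084 in mitoxantrone libraries, and 1003, 836, 929 and 885 in control libraries. Both drugs overlapped control, and the pyrimethamine libraries were all below the mitoxantrone libraries. The log2 change was -0.12 for pyrimethamine over control (95% interval -0.26 to 0.02, adjusted p = 0.138) and 0.13 for mitoxantrone over control (-0.0033 to 0.27, adjusted p = 0.0766), neither called by limma. Pyrimethamine over mitoxantrone was -0.25 (SE 0.0663, adjusted p = 0.00162). The mitoxantrone change was called without mitoxantrone replicate 2 (0.18, adjusted p = 0.0210) or control replicate 1 (0.18, adjusted p = 0.0263), and the pyrimethamine change with libraries rescaled to the same total (-0.18, adjusted p = 0.0367).

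STAT3, the transcription factor of the pathway, had the largest difference between the drugs among the 10 genes. It had 7913, 8327, 8259 and 8316 normalized counts in pyrimethamine libraries, 3705, 3679.6, 3591 and 3568 in mitoxantrone libraries, and 5367, 5458, 5364 and 5315 in control libraries. The 3 groups were far apart relative to their spread, with means of 8204 ± 196, 3636 ± 66.4 and 5376 ± 59.5 in pyrimethamine, mitoxantrone and control libraries (SD, n = 4 each). Limma gave a log2 change of 0.61 for pyrimethamine over control (SE 0.0339, adjusted p = 5.57e-12), 1.53-fold higher. Mitoxantrone over control was -0.56 (SE 0.0339, adjusted p = 3.87e-12), 1.48-fold lower, and pyrimethamine over mitoxantrone was 1.17 (adjusted p = 8.55e-18), 2.26-fold higher. Against the whole table these sizes were not extreme, since 1807 of the 16950 genes rose more with pyrimethamine and 3740 fell more with mitoxantrone.

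SOCS1, which blocks JAK kinases directly, was the member with the fewest reads. Its normalized counts were 75.7, 58.1, 70.6 and 69.0 in pyrimethamine libraries, 65.1, 45.8, 68.0 and 71.7 in mitoxantrone libraries, and 118, 74.0, 95.5 and 71.1 in control libraries. The control libraries were the most spread, and both drugs overlapped them. The limma log2 change of -0.50 for mitoxantrone over control (SE 0.198, adjusted p = 0.0302) was called, and the -0.36 for pyrimethamine over control was not (95% interval -0.77 to 0.05, adjusted p = 0.131). The mitoxantrone call was lost without mitoxantrone replicate 2 (adjusted p = 0.117), control replicate 1 (adjusted p = 0.130) or control replicate 3 (adjusted p = 0.0719), and with no filter on low values (adjusted p = 0.0596). Quantile normalization ended it too, at -0.15 (adjusted p = 0.494), and called the pyrimethamine change, at -0.52 (adjusted p = 0.0282). Pyrimethamine over mitoxantrone was 0.14 (95% interval -0.28 to 0.55, adjusted p = 0.537).

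SOCS3, which binds gp130 and shuts JAK kinases off, is itself a gene that STAT3 is known to activate. It had 575, 495, 531 and 516 normalized counts in pyrimethamine libraries, 455, 394, 407 and 404 in mitoxantrone libraries, and 512, 546, 477 and 540.2 in control libraries. The mitoxantrone libraries were all below the others, and the pyrimethamine and control ranges overlapped. By limma, mitoxantrone over control was -0.32 (SE 0.0779, adjusted p = 0.00104), 1.25-fold lower, and pyrimethamine over control was 0.03 (95% interval -0.13 to 0.19, adjusted p = 0.779). Pyrimethamine over mitoxantrone was 0.35 (adjusted p = 3.73e-04).

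PIM1, also a known STAT3 target, was the only one of the 10 genes called higher with both drugs, and the only one that was highest with mitoxantrone and called so against both other groups. It had 1525, 1514, 1518 and 1311 normalized counts in pyrimethamine libraries, 2485, 1782, 2011 and 1922 in mitoxantrone libraries, and 1337, 1193, 1212 and 1221 in control libraries. Every mitoxantrone library was above all others, and the lowest pyrimethamine library was below the highest control library. The limma log2 change was 0.71 for mitoxantrone over control (SE 0.0774, adjusted p = 4.65e-08), 1.64-fold higher, and 0.24 for pyrimethamine over control (SE 0.0774, adjusted p = 0.0125). Pyrimethamine over mitoxantrone was -0.47 (adjusted p = 1.03e-05). The pyrimethamine call was lost with libraries rescaled to the same total (0.18, adjusted p = 0.0659) and with no variance trend (adjusted p = 0.0580).

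Per length, in TPM (reads per exon length, scaled to a common total in each library), STAT3, IL6ST and PIM1 led in every group. In pyrimethamine libraries STAT3 was highest at 47.2 ± 0.730 TPM, ahead of IL6ST at 33.4 ± 1.40 and PIM1 at 25.0 ± 1.94 TPM (SD, n = 4). In mitoxantrone libraries PIM1 was highest at 37.4 ± 6.63 TPM, and IL6ST at 25.1 ± 2.37 and STAT3 at 22.3 ± 0.915 TPM overlapped. In control libraries the order was STAT3 at 33.5 ± 0.880, IL6ST at 29.1 ± 2.44 and PIM1 at 22.9 ± 1.53 TPM, with no overlap between neighbors. STAT3 thus led in pyrimethamine and control libraries but not in mitoxantrone libraries.

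The other 7 genes were lower per length. In control libraries IL6R had 12.6, SOCS3 10.4, JAK2 8.14, JAK1 6.06, OSMR 4.24, LIFR 3.00 and SOCS1 2.75 TPM on average, and of these neighbors LIFR and SOCS1 alone overlapped. JAK1 was above JAK2 in pyrimethamine libraries, at 7.76 ± 0.327 against 6.90 ± 0.311 TPM. In mitoxantrone libraries JAK1 was below JAK2, at 4.24 ± 0.282 against 8.80 ± 0.765 TPM, and in control libraries also below it, at 6.06 ± 0.460 against 8.14 ± 0.709 TPM. The ranges of the 2 kinases did not overlap in any group. TPM divides by all annotated exon bases of a gene, 6317 for JAK1 and 6170 for JAK2. The transcripts expressed may be shorter, so every order between genes in TPM depends on these lengths, which the ranges do not cover.

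**Figure D3:**
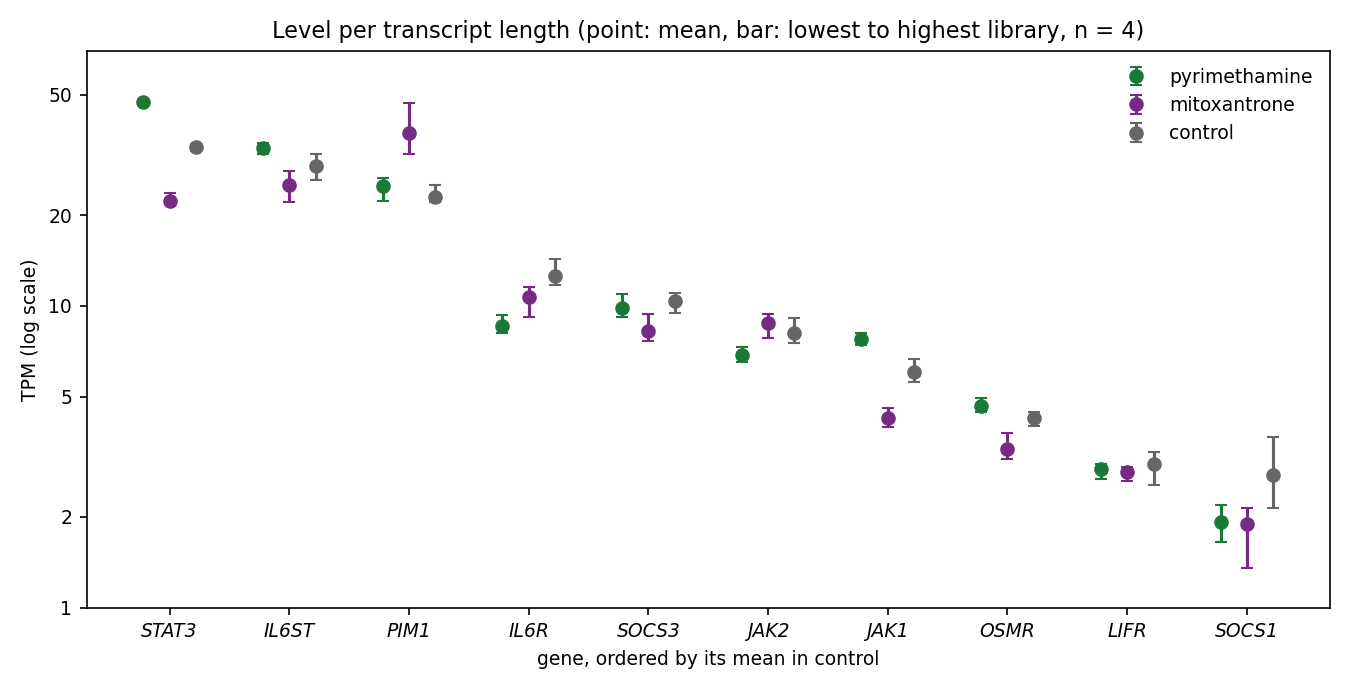
Levels per length (TPM, log axis) of the 10 genes in pyrimethamine, mitoxantrone and control libraries, as the mean of 4 libraries with a bar between the lowest and the highest. STAT3 is at 47.2, 22.3 and 33.5 TPM in these groups, and LIFR and SOCS1 are at 3.00 TPM or below on average in all 3.

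The relatives of the 10 genes were read from lists, described by their counts. Of the 8 receptor subunits of the family, 3 rose, 3 fell and 2 were not called with pyrimethamine, with a median log2 change of -0.17, and 0 rose, 6 fell and 2 were not called with mitoxantrone, with a median of -0.27. Over all genes tested, 26.4% were called higher and 26.9% lower with pyrimethamine (median 0.0018), and 33.5% higher and 35.8% lower with mitoxantrone (median -0.0080), and the lists that follow stand beside the same shares. IL31RA, which pairs with OSMR to bind IL-31, averaged 381 ± 26.8 normalized counts in pyrimethamine, 17.6 ± 9.94 in mitoxantrone and 216 ± 24.8 in control libraries (SD, n = 4 each). Its limma log2 change was 0.82 for pyrimethamine (adjusted p = 0.00383) and -3.66 for mitoxantrone over control (adjusted p = 5.10e-12), the same directions as OSMR. CNTFR, the ciliary neurotrophic factor receptor, and IL27RA fell with both drugs, by 0.85 and 0.59 with pyrimethamine and by 1.99 and 0.53 with mitoxantrone on the log2 scale.

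Of 11 cytokines of the family 7 passed the filter, and IL6, OSM, IL27 and IL31 did not. IL6 had 21 reads in all over the pyrimethamine libraries, 8 over the mitoxantrone libraries and 8 over the control libraries. OSM and IL31 had 0 reads in each of the 12 libraries, which allows up to 3 reads per library by counting error alone. With pyrimethamine 2 cytokines rose, 1 fell and 4 were not called, and with mitoxantrone 1 rose, 2 fell and 4 were not called. These small counts rest on single libraries: leaving out pyrimethamine replicate 1 left 1 cytokine called higher and 0 lower with pyrimethamine, and leaving out control replicate 2, 3 or 4 left 0 called higher with mitoxantrone. EBI3, the partner subunit of IL-27 and IL-35, had 279 reads over the pyrimethamine, 6 over the mitoxantrone and 106 over the control libraries, and it rose with pyrimethamine (log2 change 1.45, adjusted p = 0.00454 by limma).

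Among the 4 JAK kinases, 1 rose, 2 fell and 1 was not called with pyrimethamine, and 0 rose, 3 fell and 1 was not called with mitoxantrone. The one not called in either was JAK2, which was called with mitoxantrone when replicate 2 of that group or control replicate 1 was left out. TYK2, a JAK used by type I interferon receptors among others, fell by 0.41 on the log2 scale with either drug. JAK3, the JAK of lymphocyte cytokine receptors, fell by 0.71 with pyrimethamine and by 1.18 with mitoxantrone. JAK1 was thus the JAK called higher with pyrimethamine.

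Of the other STAT genes, STAT2, which acts in type I interferon signaling, averaged 2489 ± 61.3 in pyrimethamine, 2034 ± 49.4 in mitoxantrone and 3427 ± 57.0 in control libraries (normalized counts, SD, n = 4 each). It fell with both drugs, by 0.46 on the log2 scale with pyrimethamine and by 0.75 with mitoxantrone. STAT6, the factor of IL-4 signaling, averaged 5459 ± 77.1 in pyrimethamine, 8479.9 ± 214 in mitoxantrone and 8410.5 ± 229 in control libraries. It fell by 0.62 on the log2 scale with pyrimethamine (limma adjusted p = 4.39e-12) and was not called with mitoxantrone.

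**Figure D4:**
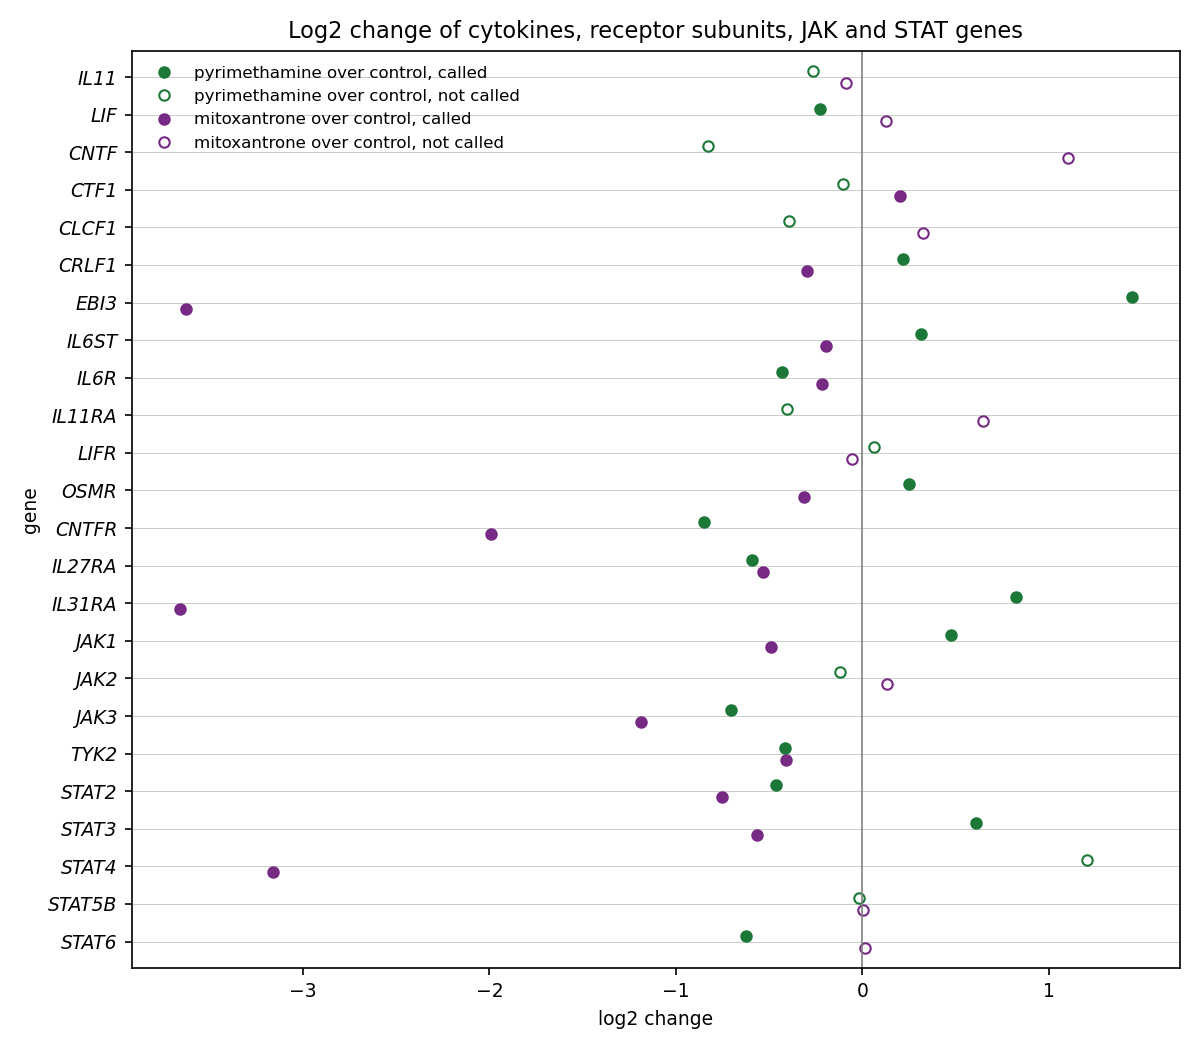
Log2 changes over control (x axis) of cytokines, receptor subunits, JAK kinases and STAT factors that passed the filter, for pyrimethamine and mitoxantrone, filled where called. IL31RA reaches 0.82 with pyrimethamine and -3.66 with mitoxantrone, and STAT2 is below 0 with both drugs.

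Of 18 negative regulators of JAK-STAT signaling 16 passed the filter. With pyrimethamine 5 rose, 5 fell and 6 were not called, and with mitoxantrone 5 rose, 8 fell and 3 were not called. Without control replicate 1 the 8 that fell became 5, and with libraries rescaled to the same total 3 rose with pyrimethamine in place of 5. SOCS2, which restrains growth hormone signaling, averaged 1449 ± 112 in pyrimethamine, 3787 ± 61.5 in mitoxantrone and 1823 ± 34.4 in control libraries. Its limma log2 change was 1.05 for mitoxantrone over control (adjusted p = 5.90e-14). SOCS4 rose by 0.46 with pyrimethamine and fell by 0.41 with mitoxantrone, while SOCS5 and CISH went the other way, at -0.39 and -0.65 with pyrimethamine and 0.35 and 0.43 with mitoxantrone. The SOCS family therefore held genes of each pattern.

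All 3 PIM kinases were called with both drugs. PIM2 averaged 2598 ± 104 in pyrimethamine, 1167 ± 31.4 in mitoxantrone and 1559.6 ± 106 in control libraries, a log2 change of 0.74 and -0.42 over control. PIM3 averaged 3155 ± 138 in pyrimethamine, 4359 ± 381 in mitoxantrone and 2827 ± 107 in control libraries, a log2 change of 0.16 and 0.62. PIM1 and PIM3 were thus highest with mitoxantrone and PIM2 with pyrimethamine. With pyrimethamine the count of PIM genes called higher was 1 in place of 3 with libraries rescaled to the same total or with no variance trend.

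Genes reported as STAT3 targets were taken from a list of 42, of which 27 passed the filter, SOCS3 and PIM1 among them. With pyrimethamine 8 rose, 5 fell and 14 were not called, a median log2 change of 0.02 beside 0.0018 over all genes tested. The 5 that fell became 9 with libraries rescaled to the same total. With mitoxantrone 11 rose, 14 fell and 2 were not called, a median of -0.31, and the 14 became 9 when genes averaging under 100 were dropped. Between the drugs all 27 differed, 17 higher and 10 lower with pyrimethamine than with mitoxantrone. Of all genes tested 53.3% were called with pyrimethamine, 69.3% with mitoxantrone (median -0.0080) and 76.4% between the drugs, that is 39.5% higher and 36.9% lower. The list was chosen with earlier results of these data known.

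SAA1, an acute-phase protein, was the target with the widest range, at 1108 ± 80.1 normalized counts in pyrimethamine, 9.45 ± 8.22 in mitoxantrone and 503 ± 55.0 in control libraries (SD, n = 4 each). Its log2 change of 1.14 for pyrimethamine over control was called by limma (adjusted p = 0.00718), but not with robust variance (adjusted p = 0.0674) or no variance trend (adjusted p = 0.0602). BCL6, a transcriptional repressor, averaged 1234 ± 52.7 in pyrimethamine, 405 ± 24.2 in mitoxantrone and 765 ± 25.1 in control libraries. ICAM1, an adhesion molecule, averaged 319.7 ± 19.9 in pyrimethamine, 88.6 ± 25.5 in mitoxantrone and 215 ± 26.5 in control libraries. SAA1, BCL6 and ICAM1 thus had the order of STAT3 itself, with pyrimethamine above control and mitoxantrone below it.

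Other targets went the opposite way. VEGFA, a growth factor for blood vessels, averaged 664 ± 34.5 in pyrimethamine, 2576 ± 261 in mitoxantrone and 1114 ± 100.1 in control libraries. CEBPB, a transcription factor of the acute-phase response, averaged 408 ± 30.7 in pyrimethamine, 1318 ± 284 in mitoxantrone and 676 ± 68.6 in control libraries. Both fell with pyrimethamine, by 0.74 and 0.73 on the log2 scale, and both rose with mitoxantrone, with log2 changes of 1.21 and 0.94. BIRC5, which encodes the survival protein survivin and follows cell division, rose with both drugs, by a log2 change of 0.64 with pyrimethamine and 0.30 with mitoxantrone.

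**Figure D5:**
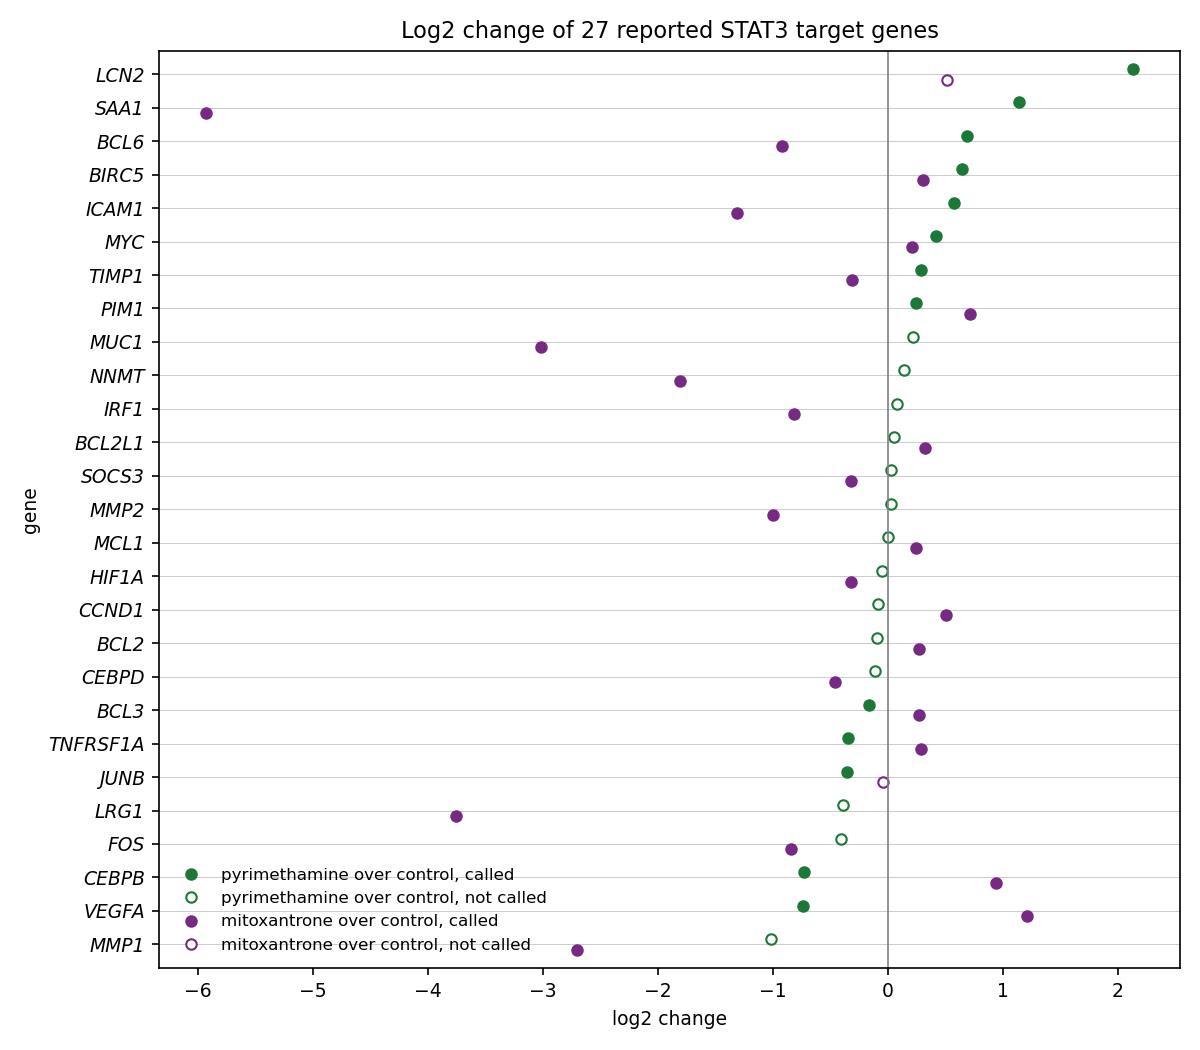
Log2 changes over control of the 27 reported STAT3 target genes that passed the filter (x axis), for pyrimethamine and mitoxantrone, filled where called. SAA1 is lowest with mitoxantrone at -5.93, and VEGFA is at -0.74 with pyrimethamine, the lowest of the called ones, and at 1.21 with mitoxantrone, the highest. MMP1, at -1.02 with pyrimethamine, was lower but not called.

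Of 22 other receptors that use JAK kinases 15 passed, with 2 higher and 5 lower with pyrimethamine and 3 higher and 8 lower with mitoxantrone. IL7R, the interleukin-7 receptor, averaged 214 ± 13.8 in pyrimethamine, 4.86 ± 3.79 in mitoxantrone and 62.6 ± 6.35 in control libraries. Of 19 other kinases and adaptors upstream of STAT3, 10 rose and 5 fell with pyrimethamine, and 4 rose and 11 fell with mitoxantrone. Beside both lists, 26.4% of all genes tested were called higher and 26.9% lower with pyrimethamine, and 33.5% higher and 35.8% lower with mitoxantrone. The 5 kinases and adaptors that fell with pyrimethamine became 3 without pyrimethamine replicate 2 or without control replicate 1. EGFR, the epidermal growth factor receptor, averaged 22908 ± 322 in pyrimethamine, 42137 ± 5237 in mitoxantrone and 37628 ± 2574 in control libraries, a log2 change of -0.71 with pyrimethamine.

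The genes whose log2 values most resembled those of STAT3 over the 12 libraries were SYNPO, CAVIN1 and TUBA4A, each with a Pearson r of 0.997 among 12096 genes compared. For SOCS3 they were GNB2 at 0.976, HMCES at 0.959 and BLOC1S3 at 0.959. For PIM1 they were ZBTB5 at 0.973, EPDR1 at 0.969 and GPSM2 at 0.968. These values describe 12 libraries that fall into 3 groups, and are carried by the differences between the groups.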

How the data were processed

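Total RNA of KYSE70 cells was sequenced as standard Illumina libraries, per the labels' protocols. The submitters' processing notes list STAR 2.6.90c, featureCounts 1.5.1, FastQC 0.11.5 and cutadapt 1.12 with the builds hg38 and mm10, and the table has human identifiers alone. What the authors deposited is a normalized signal: reads per gene over a single factor for each library. Multiplied back, 100.0% of values were whole reads within 0.01 read. The factors equaled median-of-ratios factors of those reads. The tool that made them, the strand setting and how reads shared between genes were counted are not given in the sources used here.

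Genes at 10 or more in 4 or more of the 12 libraries (16950 of 58884) were kept. One limma model (3.58.1, R 4.3.3) of log2(value + 1) on group, with a variance trend, used every library. Tests were two-sided with Benjamini-Hochberg adjustment over all genes tested, and calls were made at 0.05. The median SE of a log2 change was 0.0719. Changes of genes with few reads are understated on this scale, and folds were taken back from it. Alternatives were other scalings, pseudocounts, filters and variance settings, edgeR 4.0.16 and DESeq2 1.42.0 on the recovered reads, the 8 libraries compared alone, a replicate block, and each library left out. The fit was also run on simulated counts. Every simulated gene had the same spread beyond counting error, and far fewer genes were changed than were called here. That run therefore cannot give error rates for these data. TPM used exon lengths of GENCODE release 29, which may differ from the authors' annotation. The limit given for 0 reads covers counting error only, because PCR copies could not be told from molecules.

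The members, gene lists and tests were chosen with earlier results of these data known. Named genes are the 10 members, up to 3 called genes each way per list whose higher group averaged 50 or more (not all described), and the 3 genes with a mean of at least 100 most correlated with STAT3, SOCS3 and PIM1. Some results of these lists are not reported here.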

Additional observations from a re-analysis of the deposited data

Results flagged for a closer look

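The values of 63 genes (the 10 members and other genes named by the rule) and library depth were examined, giving 192 groups of 4 libraries. Of these, 13 held 1 library that stood apart from the other 3 by more than Dixon's 95% critical value allows. Chance alone flags about 5% of such groups. All 13 were gene values. In pyrimethamine replicate 1, STAT3 was 7913 normalized counts, below 8259 to 8327 in the others. In pyrimethamine replicate 2, EGFR was 23387 beside 22718 to 22797, PTPN1 was 9319 beside 8886 to 8937, and SH2B3 was 713 beside 618 to 628. In pyrimethamine replicate 4, LIFR was 631 beside 684 to 689, PIM1 was 1311 beside 1514 to 1525, and SOCS4 was 4901 beside 4642 to 4657. In mitoxantrone replicate 1, PTPN1 was 6852 beside 6615 to 6651. In mitoxantrone replicate 2, IL31RA was 32.4 beside 11.1 to 13.5, IL6R was 1117 beside 1312 to 1348, and PTK6 was 68.7 beside 30.9 to 36.8. In control replicate 1, IL6R was 1644 beside 1407 to 1431. In control replicate 3, JUNB was 1842 beside 2154 to 2219.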

How the results depend on the processing

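Of the 30 changes of the 10 genes, 23 kept their call, and where called their direction, under every alternative run (25 in all, the filter on a mean of at least 100 being without SOCS1) and 7 did not under at least 1. With libraries rescaled to the same total or quantile normalized, 2 of the 10 genes were called lower with pyrimethamine, in place of 1. The count called higher with mitoxantrone was 1 to 2 when each library was left out in turn. The log2 change of EGFR with mitoxantrone, 0.16 (adjusted p = 0.0293), lost its call under 10 of 25 alternatives. It was 0.08 (adjusted p = 0.126) without mitoxantrone replicate 1 and reversed under quantile normalization, at -0.0597 (adjusted p = 0.440), and the cause was not tested. Same-numbered libraries of different groups did not deviate together (correlations of -0.0133 to 0.0295, beside -0.0745 to 0.0446 for different numbers). The labels do not say whether a number marks a shared culture or day, and these correlations cannot decide it. A fit with the replicate block called 4492 genes higher and 4565 lower with pyrimethamine, 5685 and 6064 with mitoxantrone, and 6694 and 6237 for pyrimethamine over mitoxantrone, and changed no call of the 10 genes. On the recovered reads edgeR called 4506 higher and 4780 lower with pyrimethamine, 5805 and 5960 with mitoxantrone, and 6528 and 6415 between the drugs. Of the libraries, 2 of 12 correlated best with their own number in both of the other groups. SOCS1 had 48 to 126 reads per library, and its changes are the least precise of the 10. Over the alternatives, STAT3 targets called lower with pyrimethamine numbered 4 to 9, those called lower with mitoxantrone 9 to 15, and those higher with pyrimethamine than with mitoxantrone 11 to 21. Cytokines called higher numbered 1 to 3 with pyrimethamine and 0 to 3 with mitoxantrone, and kinases and adaptors called higher with mitoxantrone 2 to 5.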
